A study of Mus musculus with 6 samples.

Results

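The cytosolic ribosomal proteins were examined in injured mouse quadriceps muscle, with the genes of the large subunit set beside those of the small subunit and each paralogue beside its main gene. Members were the genes whose symbol is Rpl or Rps followed by a number, with at most a letter and a further number after it, together with the stalk genes Rplp and a number and the small subunit gene Rpsa. The symbol alone chose them, and no measured value was used. Of 14016 genes in the deposited table, 83 were members, 50 of the large and 33 of the small subunit, and 6 of the 83 were paralogues of another member. RNA came from 3 WT (B6) and 3 GATA-1 mutant mice, the latter being the ΔdblGATA strain, which lacks eosinophils through a deletion in a promoter of Gata1 in the germ line and thus in every cell. The quadriceps had undergone volumetric muscle loss, the surgical removal of a piece of muscle, without an implant, and was taken on day 7. The WT mice were female C57BL/6 mice of 10 to 12 weeks, and the age of the mutants was not given in the sources used here. Poly(A) RNA was sequenced with an added spike-in, the authors assigned the reads with the pseudoaligner kallisto, and a gene was kept when it passed 1 CPM (counts scaled to a common library total) in at least 3 samples.

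The value used for each gene is the mean log2 CPM that the authors deposited beside their own test, taken here as a mean over the samples of their comparison, although the table does not name them. Each gene thus has a single pooled value, with no value per mouse. The depth per sample is unknown, no error over mice can be given, and WT and GATA-1 mutant muscle are not compared below. The spreads given are between genes, which are not replicates. Since a longer transcript gives more fragments, levels of different genes are compared as the mean log2 CPM less log2 of the length in kb. The length is either that of the longest coding transcript or, per coding kb, that from start to stop codon. A mean of log2 values is the log of a geometric mean, so CPM values taken back from it are geometric means. The tissue label fitted the expression of all 6 markers of skeletal muscle, which had mean log2 CPM values from 10.70 to 14.65. None of the 6 eosinophil markers (Siglecf, Epx, Prg2, Ccr3, Il5ra and Ear1) had a value in the table under these symbols. Of 4 macrophage markers 3 had a value, between 5.05 and 6.15 log2 CPM. Some genes are listed by older symbols, and markers were not looked up by these. A marker without a value is therefore not shown to be unexpressed. In such bulk RNA, fewer cells of a type and less RNA per cell cannot be told apart.

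The ribosome reads messenger RNA in its small subunit and joins amino acids in its large subunit, and each ribosome is thought to carry a single copy of nearly every ribosomal protein. Most of these proteins come from a single expressed gene in mammals, a few have a paralogue that is used in particular tissues, and nearly all have left processed pseudogenes, intron-less copies of their messenger RNA, elsewhere in the genome. Many of their messenger RNAs start with a cytosine and a run of pyrimidines, the 5′ terminal oligopyrimidine (TOP) tract, through which growth signals control their translation. In skeletal muscle, ribosome content is tied to growth and regrowth of fibres.

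The ribosomal protein genes were among the most highly expressed genes of the muscle. Their median level was 7.91 log2 CPM per kb of transcript, against 2.28 over all 13958 genes with a known length, and their median percentile among those genes was 98.4. Per kb of transcript, 74 of the 83 members were in the top 10% of genes, and per coding kb 76 were. Without a length term the median of the members was 7.83 log2 CPM, against 4.04 over all genes with a length, and 68 members were in the top 10%. Together the members made up 2.24% of the geometric mean CPM summed over genes, 1.33% from the large and 0.911% from the small subunit. All 47 core genes of the large subunit and all 33 of the small subunit, including those whose symbols lie outside the rule, had a value.

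**Figure D1:**
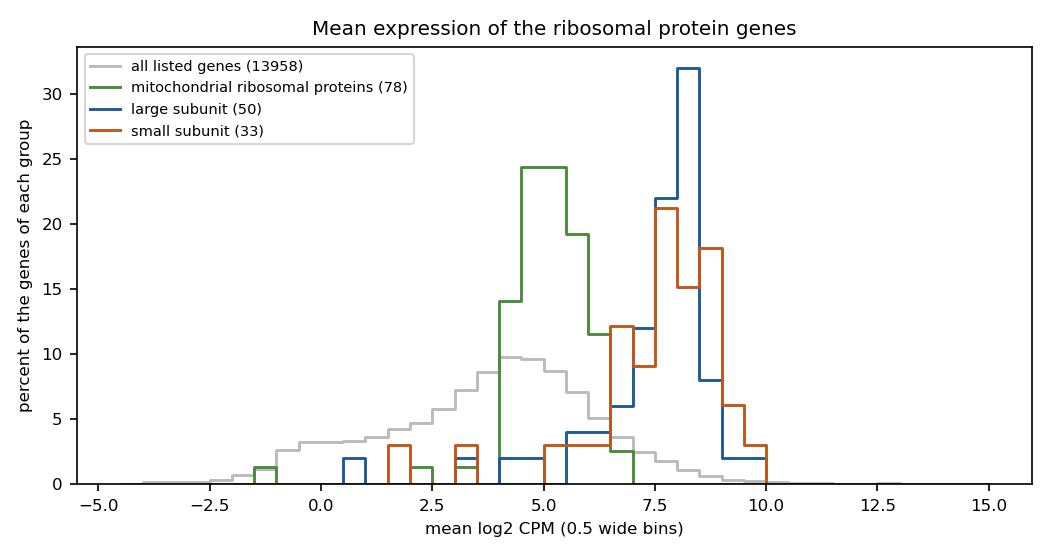
Distribution of the mean log2 CPM, in bins 0.5 wide on the x axis, as the percent of the genes of each group on the y axis, for all 13958 listed genes with a length, 78 mitochondrial ribosomal protein genes, and the 50 large and 33 small subunit genes. Both cytosolic subunits peak well to the right of all genes and of the mitochondrial ribosomal proteins, and each has a short tail of low genes.

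The medians of the large and small subunit genes were close. The median was 7.93 log2 CPM per kb of transcript over the 50 large subunit genes and 7.88 over the 33 small subunit genes, a difference of 0.06. Per coding kb the medians were 8.95 and 8.88. The difference between the subunits is far smaller than the spread between genes within a subunit, whose SD per kb of transcript was 1.67 over the large and 1.66 over the small subunit genes. Its sign was not stable either, as the mean in place of the median put the large subunit lower, by −0.08. Without paralogues, the medians per coding kb were 8.99 over 46 main genes of the large subunit and 8.92 over 31 of the small subunit, with SDs of 1.23 and 1.18.

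**Figure D2:**
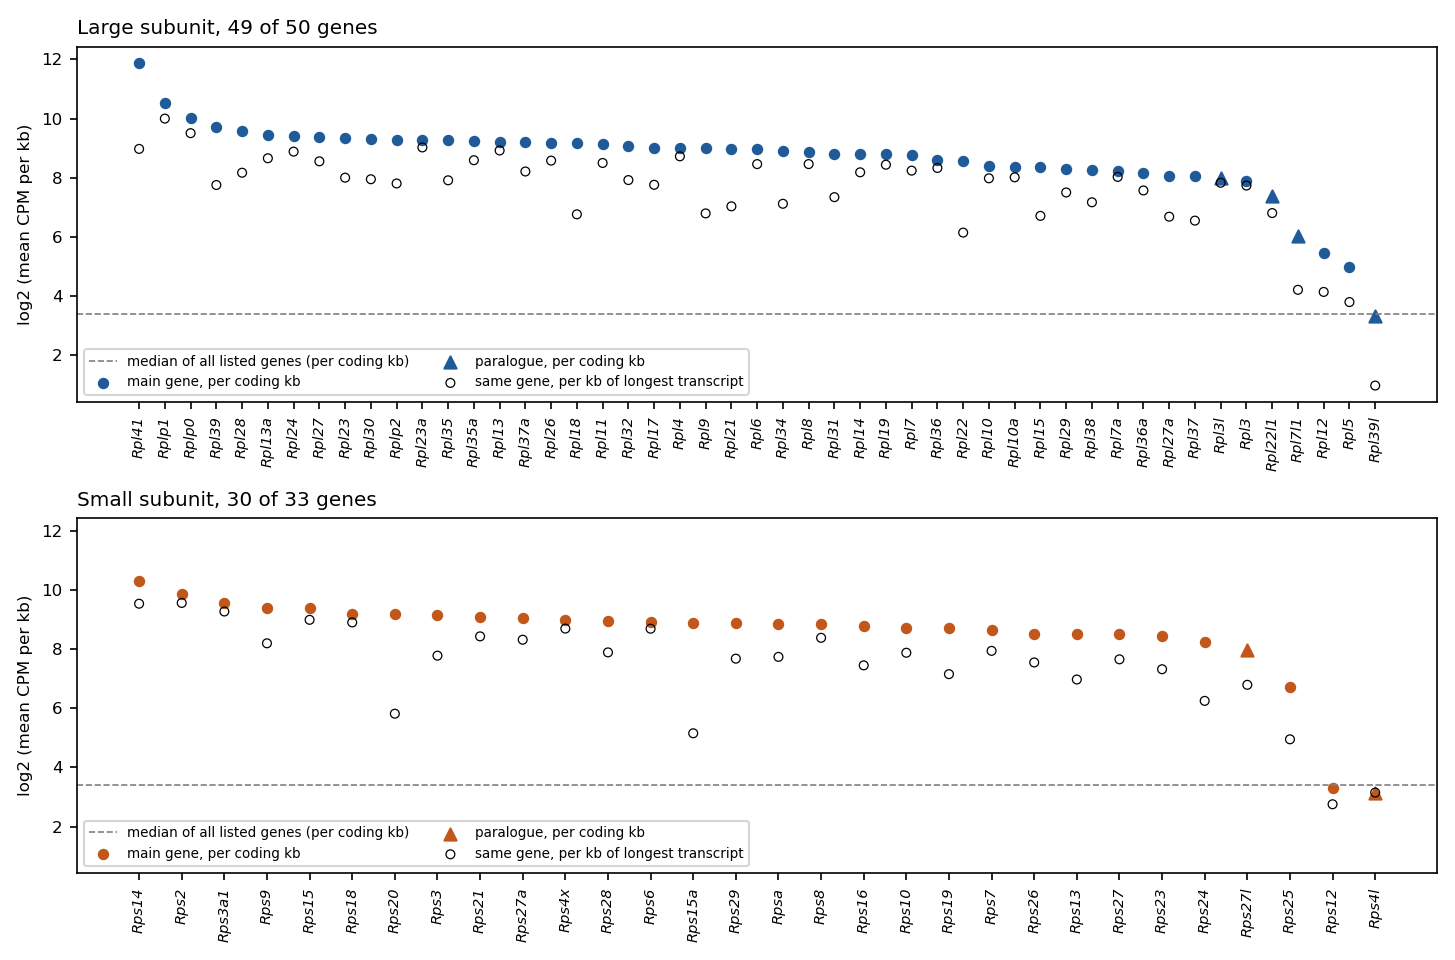
Level of 49 of the 50 large (upper) and 30 of the 33 small (lower) subunit genes, as mean log2 CPM less log2 length in kb (y axis). Genes are ordered by the level per coding kb (filled symbols, triangles for paralogues). Open circles give the level per kb of the longest transcript, and a dashed line the median of all listed genes per coding kb, 3.40. In both subunits a long run of main genes falls gradually from about 10 to about 8 and ends in a few genes that lie far below.

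Most main genes lay between 7 and 9 log2 CPM, and a few lay far lower. Of the 77 main genes, 62 had a mean of at least 7 log2 CPM and 57 lay between 7 and 9. Below 6 were 5 genes, among them Rpl12, Rpl5, Rps25 and Rps12. The SD over the 77 main genes was 1.27. Among these main genes the longer coding sequences had the higher log2 CPM, with a Spearman rho of 0.604 across genes between log2 CPM and coding length. Against the length of the longest transcript rho was 0.171. All of these points come from the same libraries and share their normalization, so the rho values are descriptions.

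At the top of the large subunit per kb of transcript stood the stalk genes Rplp1 and Rplp0, but not Rplp2. The acidic stalk proteins Rplp1 and Rplp2 and their anchor Rplp0 form the flexible arm that brings translation factors to the ribosome. Rplp1 had the highest level of the large subunit per kb of transcript, 9.999 (log2 CPM 8.996), and Rplp0 followed at 9.51 with the highest log2 CPM of any member, 9.95. Per coding kb these levels were 10.53 and 10.02. Rplp2 lay well below its partner Rplp1 on both scales, at 7.81 per kb of transcript and 9.28 per coding kb. The medians of the large subunit on these scales were 7.93 and 8.95. The stalk genes were thus not at a common level.

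Next in the large subunit per kb of transcript were Rpl23a at 9.02, Rpl41 at 8.97 and Rpl13 at 8.92. Rpl23a lies at the exit of the tunnel through which the new protein leaves. Rpl41 encodes the smallest ribosomal protein, with a coding length of only 78 bases, and dividing by this length put it first per coding kb, at 11.87. Its log2 CPM, 8.19, was the same as that of Rpl23a, whose coding length is 471 bases. The order of single genes thus rests on the length used, and as no value has an error, neighbours in the order cannot be said to differ.

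In the small subunit the highest levels per kb of transcript were those of Rps2 at 9.56, Rps14 at 9.53 and Rps3a1 at 9.27. Rps2 lines the channel through which the messenger RNA enters, and Rps14 lies on the platform. Per coding kb Rps14 was first at 10.32 and Rps2 next at 9.87, and Rps3a1 had 9.57. The 5 highest genes were the same on both scales. Rpsa, also known as a laminin receptor, was in the middle of the subunit at 7.74 per kb of transcript and 8.86 per coding kb.

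The low end of the small subunit depended on the length used. Per kb of transcript the 5 lowest genes were Rps12 at 2.76, the paralogue Rps4l at 3.15, Rps25 at 4.95, Rps15a at 5.16 and Rps20 at 5.82. Rps15a and Rps20 owe this place to a long annotated transcript, of 5179 and 3706 bases against coding lengths of 393 and 360. Per coding kb their levels were 8.88 and 9.18, near the middle and the top of the subunit. Rps12 and Rps25, by contrast, stayed low per coding kb, at 3.31 and 6.71. Rps12 had a mean of 1.98 log2 CPM, which is the lowest of the 77 main genes, and Rps25, a protein of the head known for its part in initiation at viral internal entry sites, had 5.31.

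In the large subunit the 5 lowest genes were the same on both length scales. Per kb of transcript they included the paralogue Rpl39l at 0.98, Rpl5 at 3.80, Rpl12 at 4.14 and the paralogue Rpl7l1 at 4.21. Rpl5 carries the 5S ribosomal RNA into the subunit together with Rpl11, and Rpl12 sits at the base of the stalk. The mean of Rpl5 was 4.83 log2 CPM and its level per coding kb 4.99, whereas its partner Rpl11 had 8.24 log2 CPM and 9.13 per coding kb. Rpl12, with 4.45 log2 CPM, was likewise low beside the median of 7.91 log2 CPM over the 46 main genes of their subunit.

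Low values of this kind have to be read with the copies of each gene in view, because kallisto divides reads that fit several transcripts among them. Of the 82 members with a coding sequence in the annotation, 31 had every 31-base word of that sequence in transcripts of at least 1 other gene, and 57 had at least 90% of their words there. Only 6 had under 50%, among them Rpl3l with 0%, Rpl8 with 11.02%, Rpl39l with 13.5%, Rps3 with 18.9% and Rpl4 with 38.9%. The median was 97.5% in the large and 95.0% in the small subunit. The share over all listed genes was not computed. Bases outside the coding sequence, which may tell a gene from its copies, were not searched. The levels of most members may therefore be uncertain, by an amount that the table does not give.

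Some copies had rows of their own. Counting as a copy row any other listed gene that holds at least 50% of a member's coding words, in an alignment that covers at least 50% of its own longest transcript, 37 copy rows belonged to 29 members, 19 of the large and 10 of the small subunit. In the annotation 32 of the 37 are pseudogenes. Most were low, with a median of −0.20 log2 CPM, and 20 of them had a negative mean log2 CPM. A listed gene had to pass 1 CPM in 3 or more samples. If the mean is over those same samples, a mean this low needs samples on both sides of 1 CPM. The lowest copy row, Rpl34-ps1, had −3.80 log2 CPM, which would need very low values in the other samples. How the filter acted on such rows is not shown by a single mean and was not tested. But 4 copy rows had a mean at or above that of their member, and 12 hold every coding base of it.

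The copies of Rpl12 and Rpl5 had the largest excess over the member. Gm10275, annotated as a transcribed processed pseudogene on chromosome 10 (GRCm38 chr10:29698746-29699380, minus strand), had a mean of 8.38 log2 CPM, while Rpl12 itself (chr2:32961559-32965345, plus strand) had 4.45. Gm15500, of the same kind on chromosome 7 (chr7:114705217-114706235, minus strand), had 8.60, while Rpl5 (chr5:107900502-107909005, plus strand) had 4.83. All 498 coding bases of Rpl12 occur in Gm10275 and all 894 of Rpl5 in Gm15500, without a gap or a differing base. The values themselves are of whole transcripts, which also hold bases outside this stretch. The first 150 coding bases are shown for both pairs, with no capitals because no base differs between gene and pseudogene.
Rpl12 and Gm10275: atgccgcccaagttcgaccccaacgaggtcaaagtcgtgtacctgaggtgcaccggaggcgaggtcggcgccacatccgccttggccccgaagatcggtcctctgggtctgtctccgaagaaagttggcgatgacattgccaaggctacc
Rpl5 and Gm15500: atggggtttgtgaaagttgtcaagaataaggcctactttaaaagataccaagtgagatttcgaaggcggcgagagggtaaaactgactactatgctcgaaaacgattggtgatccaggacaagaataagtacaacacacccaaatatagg
Reads from within such a stretch cannot be given to the gene or to the pseudogene by their bases. The sum of both rows was 8.47 log2 CPM for Rpl12 and 8.70 for Rpl5, which would place them among the other main genes. Whether the reads came from the gene or the pseudogene was not tested.

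Other members had a mean nearer to that of a copy. Rpl10, which lies near the site where amino acids are joined, had 7.75 log2 CPM and Rpl10-ps3, which holds every coding base of it and is annotated as coding, had 7.78. Rpl27a had 6.89 log2 CPM and its copy Gm7536 had 7.09. Rps23, a protein of the decoding centre, had 7.23 and Rps23-ps 7.004, over 425 identical aligned bases of the 432 coding bases. Rpl31-ps8, Rpl15-ps3 and Rps16-ps2 hold every coding base of their member and had 6.78, 6.18 and 5.85 log2 CPM, below the 7.41, 7.65 and 7.60 of Rpl31, Rpl15 and Rps16. An identical coding sequence did not always go with a near value, as both Rpl27-ps3 and Gm11518 hold every coding base of Rpl27 but had −1.74 log2 CPM each, beside 8.10 for Rpl27. These genes were named for their copies after the values had been seen.

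**Figure D3:**
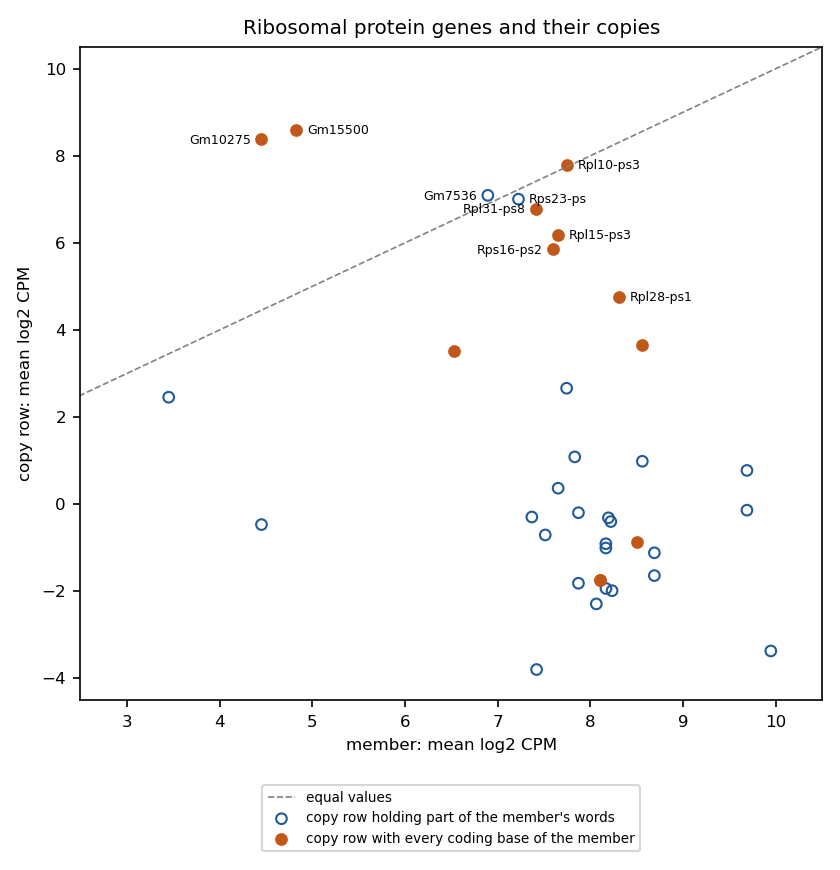
Mean log2 CPM of each of the 37 copy rows (y axis) against the mean log2 CPM of the ribosomal protein gene it copies (x axis), filled where the copy holds every coding base of the member, with a dashed line of equal values and gene names for copies above 4.5. Gm10275 and Gm15500 lie far above the line, Rpl10-ps3 and Gm7536 just above it, and most other copies far below.

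Adding the copy rows to their members raised 7 main genes by at least 0.5 log2 CPM (among them Rpl12, Rpl5, Rpl27a, Rpl10, Rps23 and Rpl31) and moved 66 of the 77 by less than 0.1. Only 29 members, all of them main genes, have a copy row, so the main genes without one could not move. The SD of log2 CPM over main genes went from 1.18 to 0.94 in the large subunit and was 1.41 both before and after in the small subunit. With the sums, rho between log2 CPM and coding length across main genes was 0.707. Not every low gene rose. Rps12 has all its coding words in other annotated genes, 28 in number, but no listed gene holds at least 50% of them, and the 16 genes that share words with Rps25 have no row. The low values of Rps12 and Rps25 are thus not matched by a high copy row in this table. Copies that did not pass the authors' filter have no row, so reads divided among many such copies could not be seen. Whether this happened was not tested.

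**Figure D4:**
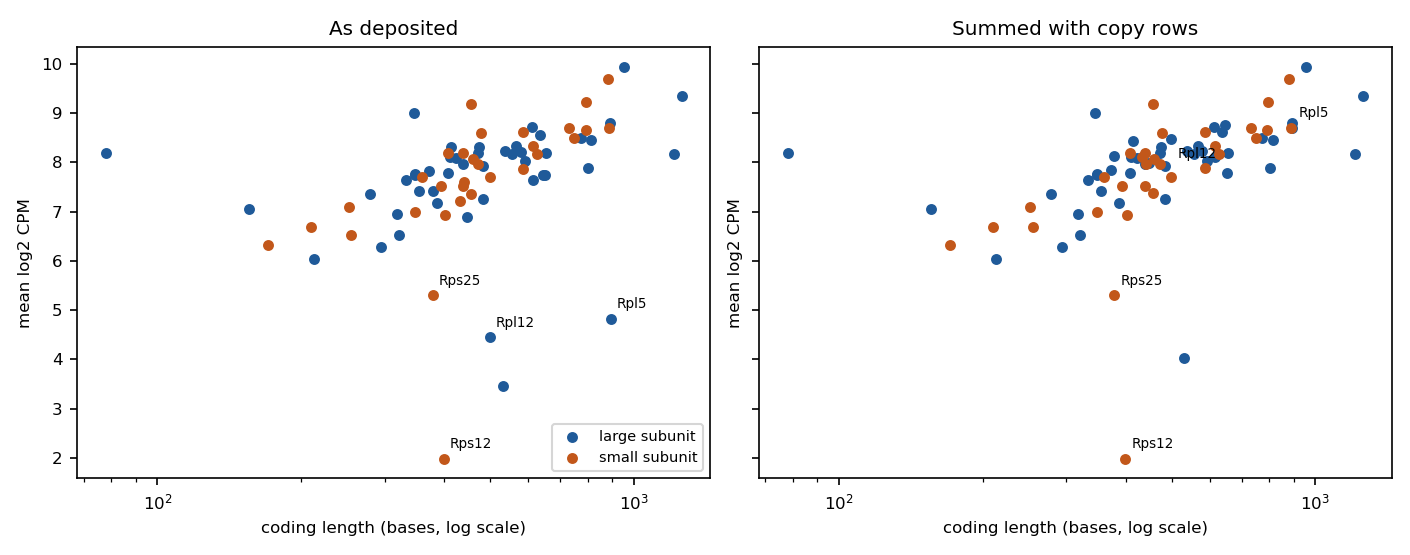
Mean log2 CPM of the 77 main genes (y axis) against coding length in bases (x axis, log scale), as deposited (left) and after summing each gene with its copy rows (right), large subunit in blue and small subunit in orange. Of the 5 genes below 6 log2 CPM, 4 are named, of which Rpl12 and Rpl5 join the other genes after summing and Rps12 and Rps25 do not.

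The paralogues varied from as high as their main gene to a small fraction of it. In the rule's 6 pairs the paralogue lay below its main gene on every length scale in 4 pairs, and Rpl3l and Rpl22l1 were the exceptions. Rpl10l, a testis paralogue of Rpl10, had no row. Over the 6 paralogues the median was 5.77 log2 CPM, against 7.90 over the 77 main genes, and 1 of the 6 was in the top 10% of all genes by log2 CPM.

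Rpl3l, the form of Rpl3 found in heart and skeletal muscle, was as high as Rpl3 itself. Rpl3l had 8.29 log2 CPM and Rpl3 8.17, so that Rpl3l made up 52.1% of the CPM of the pair. Per kb of transcript the levels were 7.83 and 7.74, a ratio of 1.07, and per coding kb 7.997 and 7.89. With the median length of the coding transcripts in place of the longest the difference was −0.22. Rpl3l shares none of its 31-base coding words with another gene, and its coding sequence is identical to that of Rpl3 over 73.3% of aligned positions, so that reads within these coding sequences differ between the genes. Rpl3, however, has 97.4% of its coding words in other genes, 33 in number, of which 1 has a row. This row, Rpl3-ps1, had −1.94 log2 CPM, and its sum with Rpl3 was 8.17. Copies without a row cannot be summed in this way. The value of Rpl3, and with it the share of the pair, thus stays less certain than that of Rpl3l. The measured tissue mixes muscle fibres with the other cells of the injury, and how the pair divides among these cells was not measured.

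Rps27l and Rpl22l1 were the other paralogues with a large share of their pair. Rps27l, known as a target of the tumour suppressor p53, had 5.99 log2 CPM and Rps27 6.53, so that Rps27l lay lower, with a difference of −0.86 per kb of transcript and of −0.53 per coding kb. Rps27rt, an intron-less copy with every coding base of Rps27, had 3.51 log2 CPM. The coding sequences of Rps27l (GRCm38 chr9:66946086-66949516, plus strand) and Rps27 (chr3:90212522-90213651, minus strand) are equally long, 255 bases, and identical at 194 of them. They are printed because they show how reads can be divided between genes that are this close, with the 61 differing bases in capitals.
Rps27l: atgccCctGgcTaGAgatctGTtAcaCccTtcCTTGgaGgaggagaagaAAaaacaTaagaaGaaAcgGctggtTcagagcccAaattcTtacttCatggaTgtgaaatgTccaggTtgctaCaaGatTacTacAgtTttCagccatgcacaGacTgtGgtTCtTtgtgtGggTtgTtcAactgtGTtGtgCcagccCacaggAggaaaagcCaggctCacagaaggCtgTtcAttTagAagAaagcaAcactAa
Rps27: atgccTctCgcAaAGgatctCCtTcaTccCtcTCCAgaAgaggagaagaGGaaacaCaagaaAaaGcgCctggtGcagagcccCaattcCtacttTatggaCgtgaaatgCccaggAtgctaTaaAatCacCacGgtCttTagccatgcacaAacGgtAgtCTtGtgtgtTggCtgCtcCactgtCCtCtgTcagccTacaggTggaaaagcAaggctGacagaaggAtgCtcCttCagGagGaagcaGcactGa
The differences are scattered over the whole length, and the genes share no 31-base word. Rpl22l1 had 5.95 log2 CPM and Rpl22 7.18. Per coding kb Rpl22l1 was lower, with a difference of −1.16, whereas per kb of transcript it was higher, with a difference of 0.66. This reversal follows from the long annotated transcript of Rpl22, 2051 bases for a coding length of 387, beside 552 and 369 for Rpl22l1.

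Rpl7l1, Rps4l and Rpl39l were far below their main genes. Rpl7l1, a nucleolar relative of Rpl7, had 5.59 log2 CPM against 8.46 and lay below Rpl7 per coding kb, with a difference of −2.73, and with only 54.0% of aligned coding positions identical. Rps4l had 3.07 log2 CPM against 8.66 for the X-linked Rps4x, and the annotation used gives Rps4l no coding sequence, so that its whole transcript of 943 bases stands in for a coding length. The lowest member was Rpl39l, a paralogue used in male germ cells, at 0.66 log2 CPM, a geometric mean of 1.58 CPM, against 7.05 log2 CPM for Rpl39. Rpl39l thus made up 1.18% of the CPM of its pair. Both have coding sequences of 156 bases, which are identical at 133 of them, and are printed with the 23 differing bases in capitals, since 8 shared 31-base words allow some reads to fit both genes (Rpl39l at GRCm38 chr16:10170226-10174911, plus strand, and Rpl39 at chrX:37082520-37085402, minus strand).
Rpl39l: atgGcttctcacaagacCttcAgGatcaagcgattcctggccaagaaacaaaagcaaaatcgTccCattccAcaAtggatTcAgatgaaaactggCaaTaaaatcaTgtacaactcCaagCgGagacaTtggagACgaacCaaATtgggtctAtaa
Rpl39: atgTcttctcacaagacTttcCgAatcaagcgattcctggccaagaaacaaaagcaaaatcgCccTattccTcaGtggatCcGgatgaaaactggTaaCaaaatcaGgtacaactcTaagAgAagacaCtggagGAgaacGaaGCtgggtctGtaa
The longest stretch without a difference lies in the first part of the coding sequence. Of the coding words of Rpl39l, 13.5% occur in other genes. Whether its mean, this near 1 CPM, includes a small share of reads from Rpl39 was not tested.

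**Figure D5:**
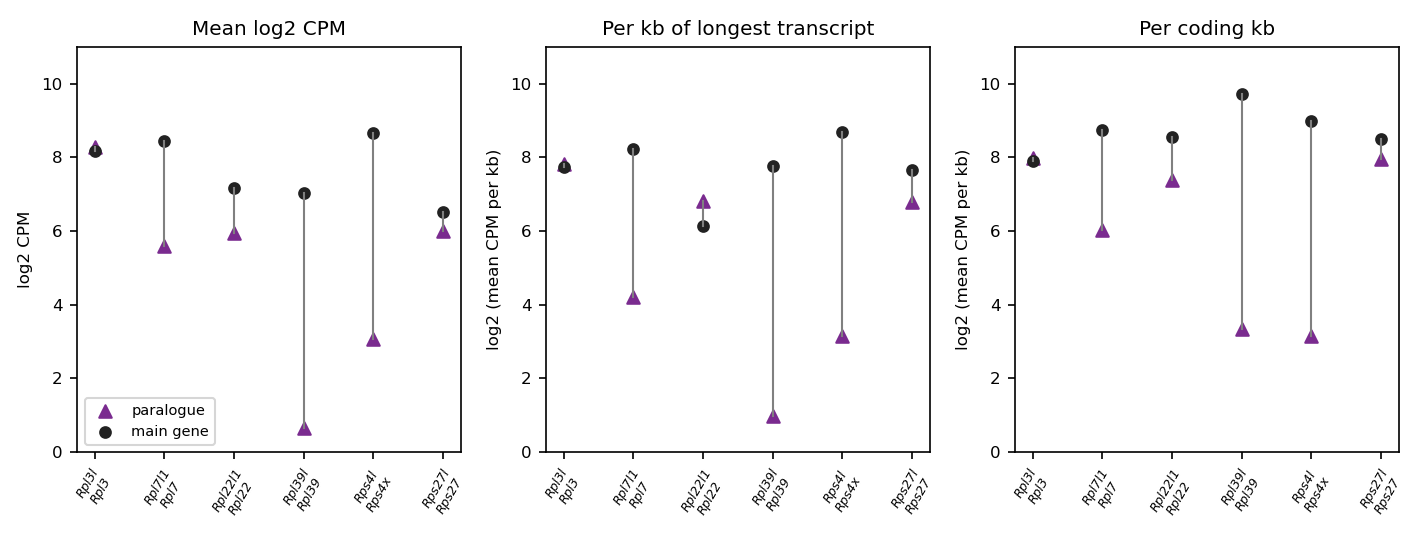
Each paralogue (triangle) and its main gene (dot), joined by a line, as mean log2 CPM (left). The other panels show the mean log2 CPM less log2 length in kb, for the longest transcript (middle) and the coding length (right). Rpl3l meets Rpl3 in all 3 panels, Rpl22l1 changes place with Rpl22 between the scales, and Rpl39l and Rps4l lie lowest. Rps4l has no annotated coding sequence and is drawn per kb of its transcript in the right panel.

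The start sites of the members were searched for the TOP tract, as a description without a test. In RefSeq promoters (GRCm38.p6), 62 members were matched by symbol, and 13 of them, 20.97%, had a C at an annotated start followed by at least 4 bases that are C or T. Among 10365 listed genes with a promoter this share was 3.04%, and among 68 mitochondrial ribosomal protein genes 0. The tract was found at 7 of 38 large and 6 of 24 small subunit genes, and at 0 of 5 paralogues. When the first base could lie up to 5 bases to either side of the start, the shares were 46.8% of members, 23.6% of listed genes and 25.0% of mitochondrial ribosomal protein genes. Where a gene had several starts, any of them counted. The shares depend on where a start is annotated, and whether the measured RNAs began at these bases is unknown. A gene counted without the tract is therefore not shown to lack it. Median levels were close with and without a match at the annotated start, with values per coding kb of 8.92 over 13 main genes and 8.93 over 44. As genes without a match may carry the tract, these medians do not describe its relation to level.

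The 30 bases around the start, of which 10 lie before it, are shown for 3 genes that carry the tract at the start, Rplp2, Rps15a and Rps27, and for Rps27l, which has a short tract 1 base further on. The tract is in capitals.
Rplp2 (GRCm38.p6 chr7:141447641-141447670, plus strand): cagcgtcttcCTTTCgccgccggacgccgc
Rps15a (GRCm38.p6 chr7:118116128-118116157, minus strand): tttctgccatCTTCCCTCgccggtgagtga
Rps27 (GRCm38.p6 chr3:90213629-90213658, minus strand): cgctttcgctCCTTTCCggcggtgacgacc
Rps27l (GRCm38.p6 chr9:66946076-66946105, plus strand): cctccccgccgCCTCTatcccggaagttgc
Of 3 other motifs searched on both strands of the 300 bases, CCGGAA, the core of ETS factor sites, was in 56.5% of the members' promoters and 29.2% of those of listed genes, but also in 57.4% of those of mitochondrial ribosomal protein genes. AAGATGG, part of the YY1 site, was in 16.1% of members, 7.99% of listed genes and 19.1% of mitochondrial ribosomal protein genes, and TATAAA in 11.3%, 9.21% and 7.35%. The first of these motifs can overlap the second. A match describes the letters and does not show that a factor binds.

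The other genes of the pathway framed these levels. Core ribosomal proteins with symbols outside the rule behaved like main genes, with 8.89 per coding kb for Fau, which encodes a ribosomal protein fused to a ubiquitin-like protein, and 8.80 for Gnb2l1, the older symbol of Rack1. Rpl36al, an intron-less relative of Rpl36a, had 8.80 per coding kb and Rpl36a 8.16. All 6 elongation factors were in the top 10% of genes, and their median was 9.18 per coding kb against 8.92 for the members, 8.80 against 7.91 per kb of transcript, and 9.89 against 7.83 as log2 CPM. Eef1a1 and its muscle form Eef1a2, which deliver transfer RNA to the ribosome, had 10.53 and 10.09 per coding kb, and Eef2, which moves the ribosome along the messenger RNA, had 9.54. The 6 nucleolar assembly factors were lower, with a median of 4.82 per coding kb and values from 4.35 for Nop56 to 7.58 for Npm1. The 78 mitochondrial ribosomal protein genes had a median of 5.89 per coding kb, 5.81 over 49 of the large and 5.92 over 29 of the small subunit. In that ribosome too, the medians of the subunits were close beside an SD between genes of 1.30 and 0.99. The 22 rows named as pseudogenes of a member had a median of −0.54 log2 CPM, although 3 of them, Rpl31-ps8, Rps23-ps and Rpl10-ps3, were in the top 10% of all genes.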

How the data were processed

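Poly(A) RNA of quadriceps from 3 WT and 3 GATA-1 mutant mice was sequenced as paired-end reads. The authors assigned reads with kallisto, summed them to genes with ensembldb, and computed CPM with edgeR. Genes had to pass 1 CPM in 3 or more samples, and values were put on a log scale, scaled by TMM and tested between genotypes with limma. The log2 values used here are the mean log2 CPM per gene that the authors deposited in that table. Its other columns hold their fold change, t, p-values and log odds, and were not used. No replicated value remained, so no genotype comparison, test or interval was made, and depth is unknown. The submitters' processing notes name GRCm39 and mm39. The table has no coordinates.

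Transcript and coding lengths, 31-base words and gene types came from GENCODE M21 (GRCm38), which may differ from the authors' index. Of 14016 rows, 13958 had a length, 500 of them through an older symbol, and 1 row had no symbol. Levels are log2 CPM less log2 length in kb, with the longest coding transcript as the main scale. Coding length is that of the principal transcript, or the longest transcript where a gene has no coding sequence, as for Rps4l. In 6 members the longest transcript was at least 5 times the coding length, so both scales are given. Coding sequences were aligned with Biopython 1.88, and protein identity was not computed. Sums with copy rows add the 2-power of mean log2 CPM. Calculations used Python 3.11.15, pandas 2.3.3, numpy 2.4.6 and scipy 1.17.1 and were tested on simulated data. Named genes were the paralogues with their main genes, the stalk genes and Rpsa, the 5 highest and 5 lowest of each subunit per kb of transcript, and the other pathway genes listed. Some genes that this rule names are not reported here and are left out of the plot by gene. Members and lists were chosen with earlier results of these data known. The alternatives were other lengths, main genes only, minimum expressions, the mean, members with few shared words and, chosen after seeing the data, sums with copy rows and main genes per coding kb.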

Additional observations from a re-analysis of the deposited data

How the results depend on the processing

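With a single pooled value per gene, a result is counted here as unchanged when it moved by less than 0.1 log2 (or 1 percentile point) and as reversed when its sign changed. No paired analysis was possible because the table holds no value per sample, and for the same reason no replicate could be left out. Of 57 alternative values for 10 results, 25 were unchanged, 26 moved and 6 reversed. The unchanged values include sums with copy rows for pairs in which neither gene has a copy row, and these could not differ. Large subunit minus small subunit, 0.06, was 0.16 without a length term and reversed to −0.11 with the longest transcript less 200 bases, −0.082 with the mean and −0.078 over the 6 members with under 50% shared words. Rpl3l minus Rpl3, 0.09, reversed to −0.22 with the median coding transcript. Rpl22l1 minus Rpl22, 0.66, reversed to −1.23 without a length term and −1.16 per coding length, and was 1.16 with the longest transcript less 200 bases.

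The other pairs kept their sign. Without a length term the difference was −2.86 for Rpl7l1, −6.38 for Rpl39l and −0.53 for Rps27l. Per coding length it was −2.73 for Rpl7l1, −6.38 for Rpl39l, −0.53 for Rps27l and, with the transcript length of Rps4l against the coding length of Rps4x, −5.84 for Rps4l. With the median coding transcript it was −3.25 for Rpl7l1, −6.53 for Rpl39l and −5.42 for Rps4l. With the longest transcript less 200 bases it was −4.19 for Rpl7l1, −6.94 for Rpl39l and −1.07 for Rps27l. Summed with copy rows, an alternative added after seeing the data, it was −1.03 for Rps27l.

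The SD over large subunit genes, 1.67, was 1.55 without a length term, 1.46 per coding length, 1.34 over main genes, 1.47 summed with copy rows and 1.23 over main genes per coding length. Over small subunit genes, 1.66, it was 1.51 per coding length, 1.54 with the median coding transcript, 1.49 over main genes and 1.18 over main genes per coding length. The median percentile, 98.4, was 96.6 without a length term, and the minimum expressions of 1 and 3 log2 CPM moved it by less than 1 point. These moves follow from the lengths and genes that each alternative puts in. The lengths come from another annotation than the authors' index may hold, and the words cover coding sequence only.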
